A study of Homo sapiens with 8 samples.

Results

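The 41 genes described here are genes of epithelial junctions, of epithelial regulation, of intestinal identity and of mesenchymal cells. They were taken by symbol from the 58735 genes of an RNA-seq table, from a list drawn up with earlier results of these data known. HCT116, the line sequenced, was established from a human colorectal carcinoma. A total of 32 were epithelial: 5 of adherens junctions, 10 of tight junctions, 6 of desmosomes, 6 regulators of epithelial genes and 5 intestinal identity genes. The other 9 were mesenchymal: 5 transcription factors and 4 structural genes. EPCAM, neither a cadherin nor a catenin, was counted with the adherens junctions. A test was made where a gene reached 1 FPKM (fragments scaled to exon length and to library size) in at least 2 libraries. That held for 31 members, 27 epithelial and 4 mesenchymal, out of 16239 genes.

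All cells carried a short hairpin RNA (shRNA). Cells with a control shRNA were kept for 24 h in DMEM with 20 mM or with 0 mM glucose. Cells with shRNA 1 or with shRNA 2 against MAPKAPK2, the gene of the stress kinase MK2, were kept at 20 mM; no source used here states for how long. Each of these 4 groups had 2 libraries. Whether the libraries of a group were separate cultures is not stated, so that the p-values reflect the spread between these libraries, which may be technical. Neither the delivery of the shRNAs nor the use of clones or pools is stated.

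Epithelial cells are held together by 3 kinds of contact. In adherens junctions, cadherins of neighbouring cells bind each other and are tied to actin by catenins. Tight junctions, built of claudins, occludin and ZO scaffold proteins, seal the space between cells. Desmosomes join the keratin filaments of neighbouring cells through desmosomal cadherins, plakoglobin and plakophilins. During an epithelial-mesenchymal transition, factors of the ZEB, SNAI and TWIST families repress many of these genes, CDH1 being the classical target, while ESRP splicing factors and the GRHL2, ELF3 and EHF transcription factors are known for maintaining the epithelial state. In the intestine, CDX2 and HNF4A direct the enterocyte programme, of which villin (VIL1) and CDH17 are products.

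ZEB and SNAI proteins are known to bind an E-box, searched here as CAGGTG on both strands (CACCTG on the other strand). RefSeq promoter windows of GRCh38.p14, from 250 bases before to 50 after a start site, were on hand for 25 of the 41 members, with 47 start sites. The E-box occurred in 14 of the 47 windows (29.8%), and in 7231 of 35116 windows of all genes (20.6%). It was in 12 of 34 epithelial windows (35.3%) and 2 of 13 mesenchymal ones (15.4%). Each start site counted as a window, and the windows came from 19 epithelial and 6 mesenchymal genes. ZEB1 alone gave 7 of the 13 mesenchymal windows, among them the 2 with a match. The 2 OCLN windows overlap, and each was counted with a match. The shares of windows thus do not compare epithelial with mesenchymal genes. These matches describe letters in a window and say nothing of binding. Of the genes whose expression differed between groups, EHF, KLF5 and CLDN4 had 0 matches in their windows. JUP had 2 matches in its first window and 0 in its second. Windows with an E-box are given for some junction and regulator genes that differed (CLDN3, TJP3, DSC2, DSG2 and ELF3). A CLDN7 window is added for its 5 matches. All of these windows hold an E-box, so they do not stand for all genes that differed. The windows read 5′ to 3′ along the gene, with the E-boxes in capitals. For TJP3, DSC2 and CLDN7, which each have 2 start sites in the table, the window with an E-box shown is the second for TJP3 and DSC2 and the first for CLDN7. The other window of each has 0 matches.
CLDN3, chr7:73770221-73770520, minus strand: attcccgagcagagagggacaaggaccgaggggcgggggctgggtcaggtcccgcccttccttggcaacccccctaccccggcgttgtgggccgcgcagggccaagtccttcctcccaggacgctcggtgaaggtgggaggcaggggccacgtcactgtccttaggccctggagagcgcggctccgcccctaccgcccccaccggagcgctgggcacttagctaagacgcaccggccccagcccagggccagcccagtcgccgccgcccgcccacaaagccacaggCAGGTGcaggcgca
TJP3, chr19:3721487-3721786, plus strand: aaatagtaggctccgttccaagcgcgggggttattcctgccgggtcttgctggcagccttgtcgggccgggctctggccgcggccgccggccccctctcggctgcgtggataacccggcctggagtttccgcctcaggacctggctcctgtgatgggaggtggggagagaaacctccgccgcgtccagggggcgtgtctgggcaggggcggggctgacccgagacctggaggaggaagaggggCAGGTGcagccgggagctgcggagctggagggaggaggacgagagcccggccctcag
DSC2, chr18:31102372-31102671, minus strand: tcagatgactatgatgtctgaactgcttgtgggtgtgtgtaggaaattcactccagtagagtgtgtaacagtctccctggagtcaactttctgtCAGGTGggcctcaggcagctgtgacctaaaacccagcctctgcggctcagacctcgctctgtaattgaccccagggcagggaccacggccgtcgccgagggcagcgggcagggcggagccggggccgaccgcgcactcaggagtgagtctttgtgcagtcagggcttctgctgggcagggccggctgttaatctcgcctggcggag
DSG2, chr18:31497927-31498226, plus strand: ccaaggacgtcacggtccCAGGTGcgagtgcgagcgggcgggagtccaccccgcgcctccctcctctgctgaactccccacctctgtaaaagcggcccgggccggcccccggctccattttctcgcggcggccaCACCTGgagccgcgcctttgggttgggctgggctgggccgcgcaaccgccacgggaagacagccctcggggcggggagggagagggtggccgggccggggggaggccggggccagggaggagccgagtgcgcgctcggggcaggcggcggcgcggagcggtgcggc
ELF3, chr1:202010337-202010636, plus strand: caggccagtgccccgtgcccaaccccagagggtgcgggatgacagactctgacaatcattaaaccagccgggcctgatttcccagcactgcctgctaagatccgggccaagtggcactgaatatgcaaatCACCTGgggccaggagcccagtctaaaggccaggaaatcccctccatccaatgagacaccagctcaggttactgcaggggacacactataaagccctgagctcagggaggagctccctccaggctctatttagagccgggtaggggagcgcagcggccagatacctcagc
CLDN7, chr17:7262429-7262728, minus strand: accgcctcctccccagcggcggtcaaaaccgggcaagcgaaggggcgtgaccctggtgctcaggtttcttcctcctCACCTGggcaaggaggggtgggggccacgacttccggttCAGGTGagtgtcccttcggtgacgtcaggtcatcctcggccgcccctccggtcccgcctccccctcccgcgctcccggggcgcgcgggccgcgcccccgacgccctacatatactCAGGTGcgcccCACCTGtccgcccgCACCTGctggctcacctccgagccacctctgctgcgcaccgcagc
The E-box starts 7 bases before the start site in TJP3, 120 in ELF3 and 156 in DSC2, and at base 37 after it in CLDN3. In DSG2 the matches start 232 and 116 bases before it.

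MAPKAPK2, the target, measured 16.4 and 16.2 FPKM in the control libraries at 20 mM, 2.77 and 2.54 with shRNA 1, and 0.982 and 0.7996 with shRNA 2. The libraries held 14252316 to 19975449 reads in genes. On the third principal component of all tested genes (11.4% of the variance) the second 0 mM control library (32.4) and the second shRNA 2 library (18.4) stood apart from the other 6 (-16.7 to 0.964). Without the second shRNA 2 library, 10 members in place of 11 passed the test with shRNA 2, and without the second 0 mM control library the count for glucose was 0, as with it. Of 15 markers of leukocytes, endothelium, fibroblasts, goblet, enteroendocrine and stem cells, none reached 1 FPKM in any library, 5 to 8 were at 0, and their sum was 0.321 to 0.844 FPKM. In bulk RNA, fewer cells that express a gene and less of its RNA per cell cannot be told apart.

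The label of an epithelial line was borne out by EPCAM and CDH1 and by the keratins KRT8, KRT18 and KRT19, which lay between 177 and 905 FPKM. KRT8 and KRT18, whose proteins form the keratin filaments that desmosomes anchor, fell with shRNA 2 by 0.62 each on the log2(FPKM + 1) scale (SE 0.14 and 0.12; limma with Benjamini-Hochberg adjustment, adjusted p = 0.023 and 0.014). The intestinal part of the label was borne out only in part. Of the 5 intestinal members CDX2 measured 4.26 to 6.48 FPKM and HNF4A, also a liver factor, 1.03 to 1.32, while the others were near 0. CDX1, an intestinal homeobox gene, had 0 reads in every library, where 3 reads would have been at most 0.112 FPKM. VIL1 did not exceed 8 reads and CDH17 did not exceed 10. KRT20, a marker of differentiated colonic cells, lay between 0.337 and 1.59 FPKM.

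**Figure D1:**
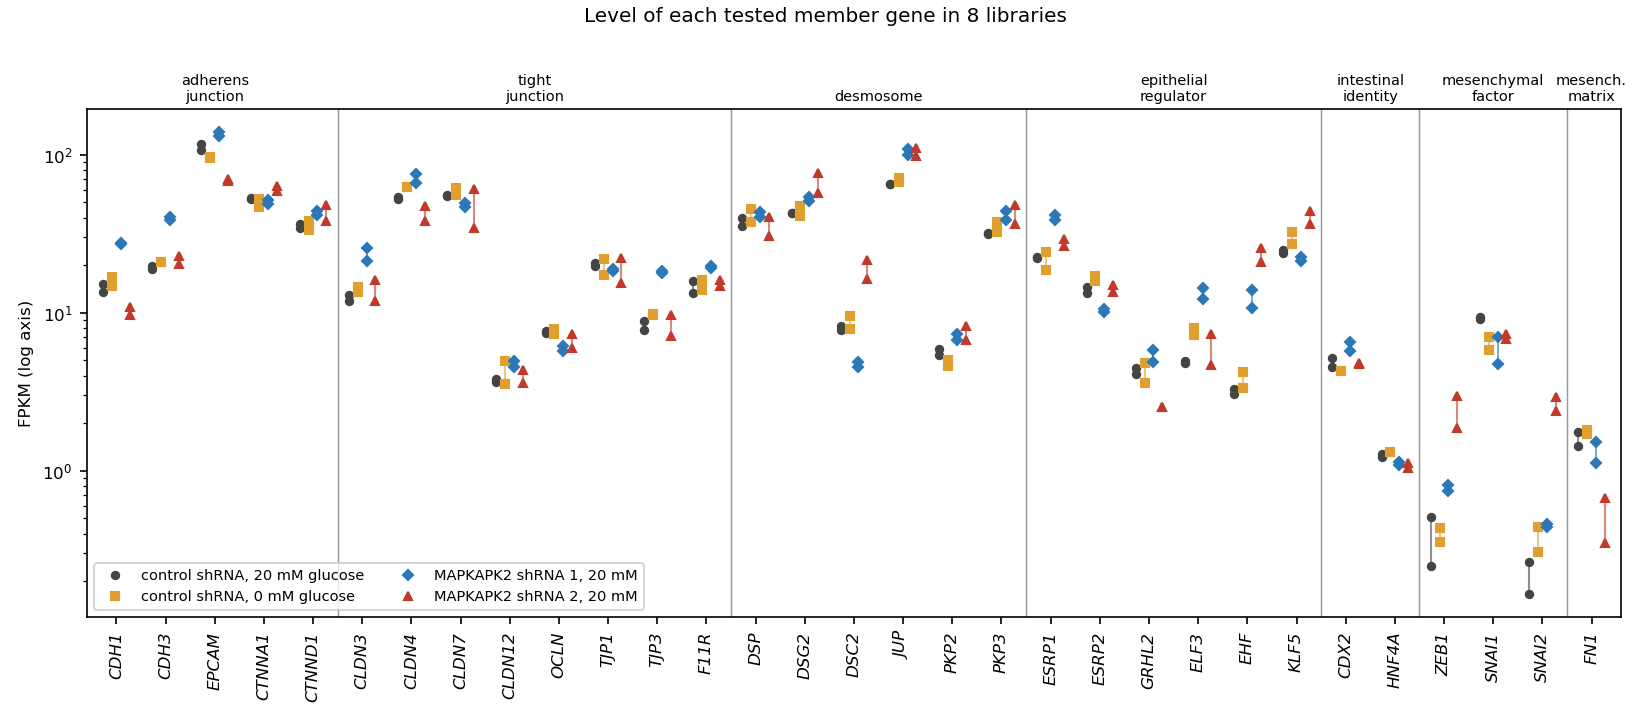
FPKM on a log axis of the 31 tested member genes in the 8 libraries, in columns by role; each symbol is a library, its shape and colour give the group, and a line joins the libraries of a group. The shRNA 1 libraries lie above the others for CDH1, CDH3, TJP3 and ELF3, and the shRNA 2 libraries for DSC2, EHF, ZEB1 and SNAI2.

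Glucose withdrawal for 24 h moved none of these genes past the threshold of an adjusted p under 0.05. The limma fit called 0 of 16239 genes (0%), and 0 of the 31 members. At an unadjusted p under 0.05 it had 1421 genes, 4 of them members. A second limma fit, to reads recovered from the FPKM and called the read-based fit below, passed 28 genes (0.172%, or 0.154% higher and 0.0185% lower) and again 0 members. The members' lowest adjusted p in the first fit was 0.497. The median log2 change was 0.09 over the 27 epithelial members and 0.06 over the 4 mesenchymal ones, beside -0.01 over all genes tested.

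The 4 members at an unadjusted p under 0.05 were ELF3, SNAI1, EPCAM and ESRP2. ELF3, an ETS factor of differentiated epithelia, measured 4.78 and 4.98 FPKM at 20 mM and 7.19 and 8.06 at 0 mM. SNAI1, a repressor of CDH1, measured 9.40 and 9.13 at 20 mM and 6.99 and 5.85 at 0 mM. For both genes the libraries of the groups did not overlap. The log2(FPKM + 1) differences were 0.55 (SE 0.19, limma adjusted p = 0.497) for ELF3 and -0.47 (SE 0.17, adjusted p = 0.509) for SNAI1, so neither passed after adjustment. SNAI1 was higher in each 20 mM control library than in any other library.

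**Figure D2:**
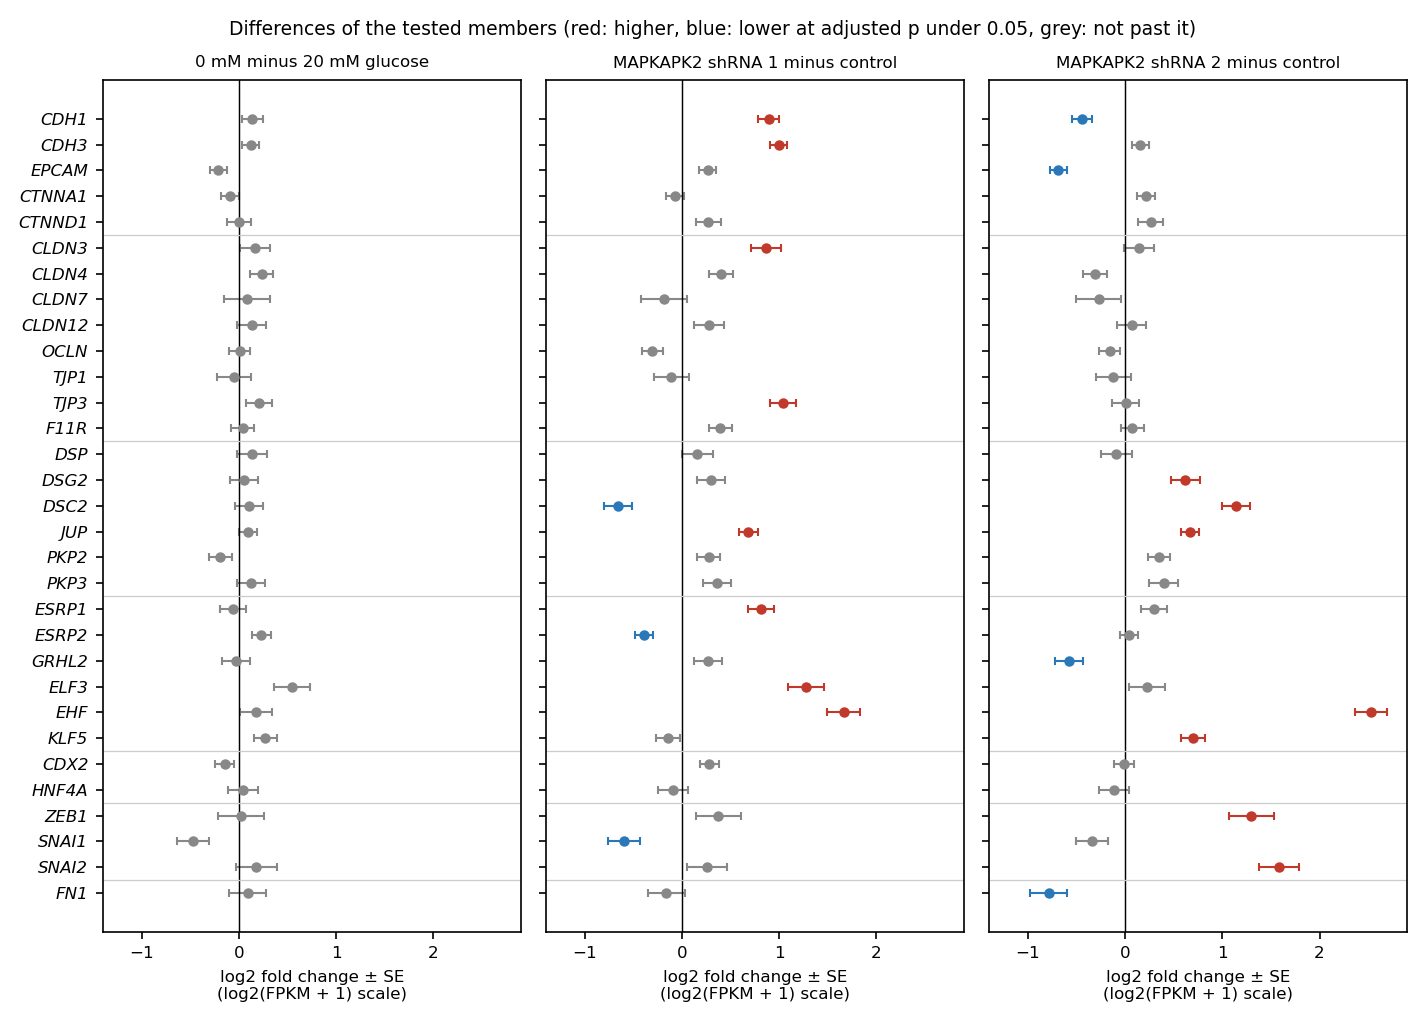
Log2 fold change ± standard error on the log2(FPKM + 1) scale of the 31 tested members (rows, divided by role) for 0 against 20 mM glucose and for each MAPKAPK2 shRNA against the control at 20 mM. Red marks a rise and blue a fall at an adjusted p under 0.05: 0 genes in the glucose panel, 8 and 3 with shRNA 1, and 7 and 4 with shRNA 2. The 7 include ZEB1 and SNAI2, which were admitted to the test through the shRNA 2 libraries alone.

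Both MAPKAPK2 shRNAs changed epithelial members, and each did so in both directions. With shRNA 1, 11 of the 31 tested members passed the test, 8 higher and 3 lower, where 19.8% of all 16239 genes did (9.35% higher and 10.5% lower). With shRNA 2 it was also 11, 7 higher and 4 lower, where 18.8% of all genes did (11.1% higher and 7.73% lower). Of these, 4 members passed with both: EHF and JUP rose with each, whereas CDH1 and DSC2 moved in opposite directions. How many of all genes passed with both shRNAs, in the same or in opposite directions, was not computed, so this count describes the named genes only. When the shRNAs were averaged and required to have the same sign, 10 members were higher and 0 lower, where 17.3% of all genes passed (9.56% higher and 7.77% lower). These 10 were CDH3, CLDN3, TJP3, DSG2, JUP, ESRP1, ELF3, EHF, ZEB1 and SNAI2. Of them only EHF and JUP passed with each shRNA, so the others are not shown to rise with both. With shRNA 2 the log2 change was 0.00 for TJP3, 0.15 for CLDN3 and 0.23 for ELF3. The second shRNA 2 library lay below the 20 mM control mean for TJP3 (7.17 against 8.32 FPKM), CLDN3 (11.9 against 12.4) and ELF3 (4.66 against 4.88). ZEB1 and SNAI2 reached 1 FPKM through the shRNA 2 libraries alone and so had to differ, which means that counts over the mesenchymal members carry no weight. Both genes are also in the counts over all members with shRNA 2 and for the average. Among the 27 epithelial members tested, 5 were higher and 3 lower with shRNA 2, and 8 higher and 0 lower for the average. The comparisons of shRNA 1 and shRNA 2 share the 20 mM control libraries.

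The epithelial members were higher more often than lower with shRNA 1 (8 against 2 of 27 tested), with a median log2 change of 0.28, and were mixed with shRNA 2 (5 against 3), with a median of 0.07. The medians of all genes tested were -0.01 and 0.01. Among the 4 mesenchymal members tested, 1 fell with shRNA 1, and 2 rose and 1 fell with shRNA 2. Leaving out either 20 mM control library reduced the members called with shRNA 1 to 6, and those with shRNA 2 to 5 (without the first) or 6 (without the second). Leaving out the second shRNA 1 library left 7 with shRNA 1. The average over both shRNAs kept 3 and 2 calls without the first and the second 20 mM control, and 5 without either shRNA 1 library. Without the filter on low values, which brings in more genes, the calls of DSC2 and SNAI1 with shRNA 1 and of CDH1, DSG2, GRHL2 and FN1 with shRNA 2 were lost (adjusted p = 0.056 to 0.108), and after quantile normalization that of DSG2 (0.094). Of the 10 calls for the average, those of JUP and EHF held under all 14 alternative fits. The fits that leave out a library treat a lone library as varying like the other groups, and calls over all genes fell as well, from 2815 to 686 and 748 for the average without the first and the second 20 mM control.

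Of the 5 genes counted with adherens junctions, 2 rose and 0 fell with shRNA 1 (CDH1 and CDH3), and 0 rose and 2 fell with shRNA 2 (CDH1 and EPCAM), where 19.8% and 18.8% of all genes passed. The other 3 did not pass in each case, and the median log2 change of the 5 was 0.27 with shRNA 1 and 0.15 with shRNA 2. Among the cadherins and catenins, CDH1 alone fell with shRNA 2. CDH1, E-cadherin, measured 15.1 and 13.5 FPKM in the 20 mM control libraries, 14.8 and 16.8 at 0 mM, 27.2 and 27.5 with shRNA 1, and 9.62 and 10.8 with shRNA 2. The libraries of each shRNA thus lay outside the range of the controls, on opposite sides of it. CDH1 rose by 0.89 on the log2 scale with shRNA 1 (SE 0.11, limma adjusted p = 0.0029) and fell by 0.44 with shRNA 2 (SE 0.11, adjusted p = 0.030). Between the shRNAs it fell by 1.34 from shRNA 1 to shRNA 2 (SE 0.11, adjusted p = 0.00065), to 37.4% of the level with shRNA 1.

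CDH3, P-cadherin, lies next to CDH1 on chromosome 16 in GRCh38 (68636189 to 68722616, with CDH1 at 68737225 to 68835548), 14.6 kb away with no protein-coding gene between them. It measured 19.7 and 18.8 FPKM in the 20 mM controls, 21.0 and 21.0 at 0 mM, 40.2 and 38.6 with shRNA 1, and 22.8 and 20.3 with shRNA 2. The shRNA 1 libraries were about as far above their controls for CDH3 as for CDH1, while the shRNA 2 libraries were just above. The rise with shRNA 1 was 1.00 (SE 0.09, limma adjusted p = 0.0014), and the change with shRNA 2 was 0.15 (SE 0.09, adjusted p = 0.29). The difference between the shRNAs was -0.84 (SE 0.09, adjusted p = 0.0015).

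EPCAM, an epithelial cell adhesion molecule on chromosome 2 (47345158 to 47387601), had the highest level of the 41 members in the 20 mM control libraries, 108 and 116 FPKM. It measured 95.4 and 97.5 at 0 mM, 139 and 131 with shRNA 1, and 70.0 and 68.2 with shRNA 2. All groups were apart from each other, with shRNA 2 lowest and shRNA 1 highest. EPCAM fell by 0.69 with shRNA 2 (SE 0.09, limma adjusted p = 0.0032), while its change of 0.26 with shRNA 1 (SE 0.09) did not pass (adjusted p = 0.077). From shRNA 1 to shRNA 2 it was lower by a log2 value of -0.95 (SE 0.09, adjusted p = 0.00093).

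The catenins CTNNA1 (alpha-catenin, which links the cadherin complex to actin) and CTNND1 (p120-catenin, which stabilises cadherins) passed in no comparison. CTNNA1 ranged from 46.9 to 63.8 FPKM and CTNND1 from 33.3 to 47.8 over all 8 libraries. The calls of CDH1 and CDH3 with shRNA 1, of EPCAM with shRNA 2 and of all 3 between the shRNAs held under every alternative fit run. The fall of CDH1 with shRNA 2 was lost without either 20 mM control library (adjusted p = 0.179 and 0.081), either shRNA 1 library (0.062 in both fits) or the first shRNA 2 library (0.081); the average call of CDH3 was lost without the second 20 mM control (0.057).

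Of the 8 tested tight junction genes, 2 rose with shRNA 1, a share of 25% beside 19.8% of all genes, and 0 passed with shRNA 2, beside 18.8% (limma; 1 had an unadjusted p under 0.05, and the read-based fit called 0 as well). TJP3, the scaffold protein ZO-3, measured 7.83 and 8.82 FPKM in the 20 mM controls, 9.80 and 9.72 at 0 mM, 18.5 and 17.8 with shRNA 1, and 9.67 and 7.17 with shRNA 2. Its shRNA 1 libraries stood apart, and its shRNA 2 libraries straddled the controls. The change was 1.04 (SE 0.14, adjusted p = 0.0039) with shRNA 1, 0.00 (SE 0.14, adjusted p = 0.99) with shRNA 2, and -1.03 (SE 0.14, adjusted p = 0.0034) between them.

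CLDN3 and CLDN4, claudins that tighten the barrier, lie 29.3 kb apart on chromosome 7 (73768997 to 73770270 and 73799542 to 73832693) with no protein-coding gene between. CLDN3 measured 13.0 and 11.8 FPKM in the 20 mM controls, 13.6 and 14.5 at 0 mM, 25.7 and 21.4 with shRNA 1, and 16.1 and 11.9 with shRNA 2. CLDN4 measured 54.1 and 52.2, 62.3 and 62.8, 75.1 and 65.9, and 47.6 and 38.4 in the same order. For both genes the shRNA 1 libraries were the highest of all, and for CLDN4 the shRNA 2 libraries were the lowest. CLDN3 rose with shRNA 1 by 0.86 (SE 0.16, limma adjusted p = 0.012). CLDN4 did not pass against the control with either shRNA (0.40, adjusted p = 0.064, and -0.31, adjusted p = 0.135), though the read-based fit called its rise with shRNA 1 (adjusted p = 0.023). Between the shRNAs both were lower with shRNA 2, by log2 values of -0.72 (SE 0.16, adjusted p = 0.019) and -0.71 (SE 0.12, adjusted p = 0.0090).

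CLDN7, CLDN12, OCLN (occludin), TJP1 (the scaffold ZO-1) and F11R (the adhesion molecule JAM-A) passed in no comparison of this fit. CLDN7 measured 60.7 and 34.2 FPKM in the shRNA 2 libraries, the second of which stood apart on the third principal component, and 47.0 to 61.3 in the other 6. F11R measured 13.3 and 15.9 FPKM in the 20 mM controls and 19.7 and 19.1 with shRNA 1. That difference of 0.39 (SE 0.12) had an adjusted p of 0.059 by limma and 0.030 in the read-based fit, and 36.6% of F11R's exon bases also belong to AL591806.3, which lay between 0.176 and 1.41 FPKM. CLDN1 had at most 4 reads in any library, and CLDN2, a pore-forming claudin, measured 0.263 to 1.11 FPKM and went untested. The rise of CLDN3 with shRNA 1 was lost without either 20 mM control (adjusted p = 0.060 and 0.079) or the first shRNA 1 library (0.079). Its difference between the shRNAs was lost without either shRNA 1 library (0.114 and 0.052), and that of CLDN4 without the first (0.066).

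Of the 6 desmosomal genes, 1 rose and 1 fell with shRNA 1, beside 19.8% of all genes called, and 3 rose and 0 fell with shRNA 2, beside 18.8%. DSC2, the cadherin desmocollin 2, measured 8.19 and 7.83 FPKM in the 20 mM controls, 7.89 and 9.496 at 0 mM, 4.53 and 4.89 with shRNA 1, and 16.4 and 21.6 with shRNA 2. The shRNA 1 libraries lay below all others and the shRNA 2 libraries above all others. DSC2 fell by 0.66 with shRNA 1 (SE 0.15, limma adjusted p = 0.023) and rose by 1.14 with shRNA 2 (SE 0.15, adjusted p = 0.0034). The difference of 1.80 between the shRNAs (SE 0.15, adjusted p = 0.00066) corresponded to 4.03 times the mean FPKM, opposite in direction to that of CDH1.

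DSG2, desmoglein 2, lies on the same chromosome 18 cluster of desmosomal cadherins (31498043 to 31549008), with 4 protein-coding genes (DSC1, DSG1, DSG3 and DSG4) between it and DSC2 (31058840 to 31102522). It measured 42.6 and 42.7 FPKM in the 20 mM controls, 41.01 and 47.7 at 0 mM, 51.3 and 53.9 with shRNA 1, and 57.2 and 76.3 with shRNA 2. All libraries with a MAPKAPK2 shRNA were thus above all controls. DSG2 rose with shRNA 2 by 0.62 (SE 0.15, limma adjusted p = 0.029), and its change with shRNA 1 of 0.30 did not pass (adjusted p = 0.21). The difference of 0.32 between the shRNAs did not pass either (SE 0.15, adjusted p = 0.16).

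JUP, plakoglobin, a catenin of desmosomes and adherens junctions, rose with both shRNAs. It measured 65.0 and 64.9 FPKM in the 20 mM controls, 67.5 and 71.3 at 0 mM, 109 and 100.01 with shRNA 1, and 109.6 and 98.1 with shRNA 2. All 4 MAPKAPK2 shRNA libraries stood above all 4 control libraries. The rises were 0.68 (SE 0.10, limma adjusted p = 0.0052) and 0.67 (SE 0.10, adjusted p = 0.0053), and the difference between them was -0.01 (SE 0.10, adjusted p = 0.94).

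DSP (desmoplakin, which anchors keratin), PKP2 and PKP3 (plakophilins, which link it to the cadherins) passed in no comparison of this fit, with 30.6 to 45.5, 4.61 to 8.26 and 31.5 to 48.3 FPKM over the 8 libraries. The read-based fit called PKP3 with shRNA 2 (0.41, adjusted p = 0.046) and the average rises of PKP2 (0.35, adjusted p = 0.048) and PKP3 (0.39, adjusted p = 0.030). The calls of JUP with each shRNA, of DSC2 with shRNA 2 and of DSC2 between the shRNAs held under every alternative fit run. That of DSC2 with shRNA 1 was lost without either 20 mM control (adjusted p = 0.123 and 0.099) or either shRNA 1 library (0.125 and 0.093), and that of DSG2 with shRNA 2 without either 20 mM control (0.134 and 0.128), either shRNA 1 library (0.056 in both fits) or the second shRNA 2 library (0.058).

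All 6 regulators of epithelial genes differed between the shRNAs, 3 higher and 3 lower with shRNA 2, where 22.2% of all genes differed. EHF, an ETS factor of epithelial differentiation on chromosome 11 (34621093 to 34661057), had the largest rise of any member against the control on the log2(FPKM + 1) scale. It measured 3.31 and 3.07 FPKM in the 20 mM controls, 3.32 and 4.21 at 0 mM, 10.7 and 14.0 with shRNA 1, and 20.8 and 25.7 with shRNA 2. The groups did not overlap, and their order was control, shRNA 1 and shRNA 2. EHF rose by 1.66 with shRNA 1 (SE 0.17, limma adjusted p = 0.0018) and by 2.53 with shRNA 2 (SE 0.17, adjusted p = 0.00033), or 3.88 and 7.29 times the control mean. The difference between the shRNAs was 0.86 (SE 0.17, adjusted p = 0.013).

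ELF3, the other ETS factor, on chromosome 1 (202007945 to 202017188), measured 14.3 and 12.2 FPKM with shRNA 1 and 7.38 and 4.66 with shRNA 2, beside the 4.78 and 4.98 of the 20 mM controls. Its shRNA 1 libraries were above all others, and its shRNA 2 libraries reached both sides of the controls. ELF3 rose by 1.27 with shRNA 1 (SE 0.19, limma adjusted p = 0.0057), and its change of 0.23 with shRNA 2 did not pass (adjusted p = 0.45). The difference was -1.05 (SE 0.19, adjusted p = 0.0096). Of its exon bases 18.5% also lie in ELF3-AS1 on the opposite strand, which measured 1.30 and 1.65 FPKM in the 20 mM controls and 2.58 and 2.25 with shRNA 1. How far reads of ELF3 and ELF3-AS1 were counted in each other was not tested, since no source used here gives the strand setting of the counting.

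KLF5, a zinc finger factor of proliferating gut epithelium, measured 23.8 and 24.95 FPKM in the 20 mM controls, 21.4 and 22.6 with shRNA 1, and 36.7 and 43.9 with shRNA 2. GRHL2, an activator of CDH1 and claudin genes, measured 4.47 and 4.08, 4.86 and 5.85, and 2.53 and 2.53 in the same order. With shRNA 2, KLF5 was above and GRHL2 below all other libraries of these groups. KLF5 rose by 0.70 with shRNA 2 (SE 0.12, limma adjusted p = 0.010) and GRHL2 fell by 0.58 (SE 0.14, adjusted p = 0.034), while their changes of -0.14 and 0.27 with shRNA 1 did not pass. The differences between the shRNAs were 0.84 for KLF5 (SE 0.12, adjusted p = 0.0048) and -0.84 for GRHL2 (SE 0.14, adjusted p = 0.0083).

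The splicing factors ESRP1 and ESRP2, which set the epithelial forms of many transcripts, moved in opposite directions with shRNA 1. ESRP1 measured 22.3 and 22.4 FPKM in the 20 mM controls, 38.5 and 41.7 with shRNA 1, and 26.3 and 29.2 with shRNA 2. ESRP2 measured 14.5 and 13.3, 10.6 and 10.2, and 15.1 and 13.5 in the same order. ESRP1 was thus highest and ESRP2 lowest with shRNA 1. ESRP1 rose by 0.81 (SE 0.13, limma adjusted p = 0.0084) and ESRP2 fell by 0.39 (SE 0.09, adjusted p = 0.031), and neither passed with shRNA 2 (0.30 and 0.04). Between the shRNAs ESRP1 differed by -0.52 (SE 0.13, adjusted p = 0.034) and ESRP2 by 0.43 (SE 0.09, adjusted p = 0.021).

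The calls of EHF and ELF3 with shRNA 1, of EHF with shRNA 2 and of KLF5 between the shRNAs held under every alternative fit run. Without the first or the second 20 mM control library, the adjusted p of ESRP1 and ESRP2 with shRNA 1 and of GRHL2 and KLF5 with shRNA 2 was 0.058 to 0.176, and the second shRNA 1 library (ESRP1, 0.063), the first and the second (ESRP2, 0.119 and 0.152), any of the 4 MAPKAPK2 shRNA libraries (GRHL2, 0.054 to 0.089) and either 0 mM control (ESRP2, 0.052 to 0.053) also decided these calls. Between the shRNAs, the calls of ELF3 (0.069) and EHF (0.079) were lost without the first shRNA 1 library and that of GRHL2 (0.063) without the second. Those of ESRP1 and ESRP2 were lost without either of these or the first shRNA 2 library (0.057 to 0.164), and that of ESRP1 without either 20 mM control (0.067 in both fits) and without the filter on low values (0.074) too.

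Of the 5 intestinal members, CDX2 and HNF4A were tested and passed in no comparison. CDX2, the homeobox factor of intestinal identity, measured 4.54 and 5.15 FPKM in the 20 mM controls, 4.28 and 4.26 at 0 mM, 6.48 and 5.73 with shRNA 1, and 4.83 and 4.75 with shRNA 2. The shRNA 1 libraries were the highest, but the change of 0.28 (SE 0.10) did not pass (limma adjusted p = 0.0998). HNF4A, a nuclear receptor of liver and gut, ranged from 1.03 to 1.32 FPKM. CDH17, a cadherin of enterocytes, had 6 to 10 reads in each control library and 1 to 3 in each MAPKAPK2 shRNA library, too few for a statement on its level. VIL1 shares 44.0% of its exon bases with USP37 on the opposite strand, which measured 1.04 to 3.70 FPKM, so its few reads cannot be assigned.

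**Figure D3:**
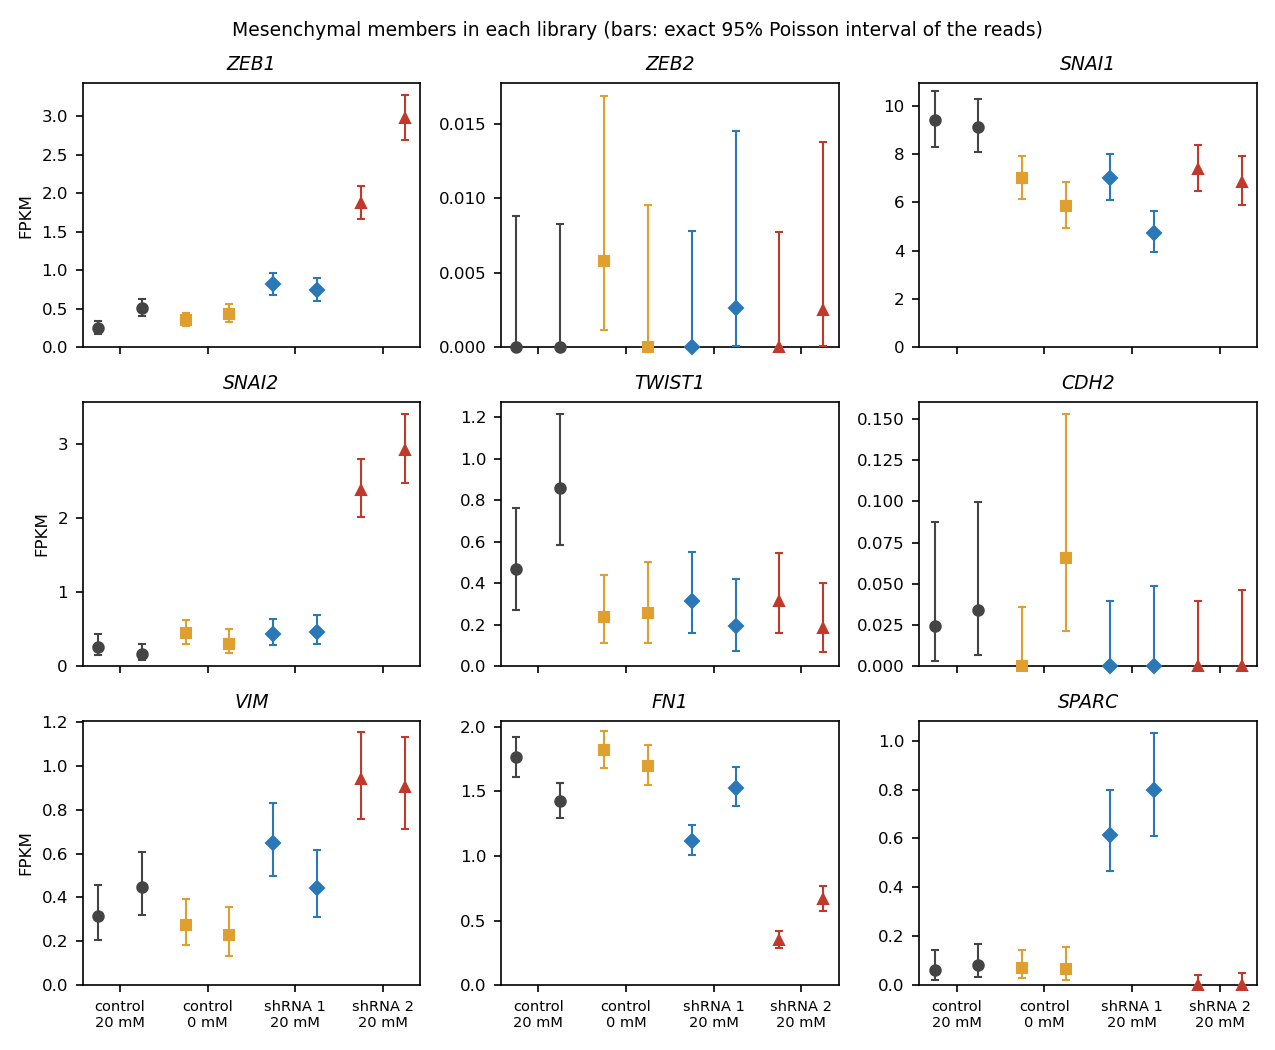
FPKM of the 9 mesenchymal members in each of the 8 libraries (linear axes, which differ between panels); bars are exact 95% Poisson intervals of the reads behind each value and cover counting error only. ZEB1, SNAI2 and VIM are highest in the shRNA 2 libraries and SPARC in the shRNA 1 libraries, where it has 56 and 59 reads, while FN1 is lowest with shRNA 2.

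The mesenchymal members stayed low in absolute terms: in the 20 mM controls only SNAI1 (9.26 FPKM ± 0.189, SD, n = 2) and FN1 (1.59 ± 0.240) had a mean over 1 FPKM. Per length, CDH1 was thus above every mesenchymal member in all libraries. ZEB1 and SNAI2, the E-box binding repressors, had their highest levels with shRNA 2. Among the 27 epithelial members tested, 3 fell in those libraries (CDH1, EPCAM and GRHL2) and 5 rose (EHF, DSC2, KLF5, JUP and DSG2). Of all genes, 7.73% were lower and 11.1% higher. Any part of ZEB1 or SNAI2 in these changes was not tested. ZEB1, on chromosome 10 (31318495 to 31529814), measured 0.249 and 0.507 FPKM in the 20 mM controls, 0.352 and 0.435 at 0 mM, 0.817 and 0.741 with shRNA 1, and 1.87 and 2.97 with shRNA 2, from 36 and 78 reads in the 20 mM controls to 306 and 414 with shRNA 2. SNAI2 measured 0.264 and 0.166, 0.442 and 0.306, 0.438 and 0.463, and 2.38 and 2.91 in the same order, with 15 and 10 reads in the 20 mM controls and 153 and 159 with shRNA 2. For both, the shRNA 2 libraries exceeded all others, and the shRNA 1 libraries were above the 20 mM controls.

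The mean FPKM with shRNA 2 was 6.41 times the 20 mM control for ZEB1 and 12.3 times for SNAI2, and log2 changes in the read-based fit were 2.69 and 3.60. Since the filter on low values admitted both genes through the shRNA 2 libraries alone, its p-values are not given here. In the fit without that filter, on the log2(FPKM + 1) scale, which understates changes of low genes, ZEB1 rose with shRNA 2 by 1.30 (SE 0.22, limma adjusted p = 0.027) and SNAI2 by 1.58 (SE 0.17, adjusted p = 0.0069). With shRNA 1 the changes of 0.37 and 0.26 did not pass (adjusted p = 0.45 and 0.47). Between the shRNAs SNAI2 differed by 1.33 (SE 0.17, adjusted p = 0.011), and the difference of 0.92 for ZEB1 did not pass (SE 0.22, adjusted p = 0.066), nor did its average over both shRNAs (adjusted p = 0.067).

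SNAI1, on chromosome 20 (49982999 to 49988886), went the other way. It measured 6.99 and 4.73 FPKM with shRNA 1 and 7.36 and 6.85 with shRNA 2, against 9.40 and 9.13 in the 20 mM controls, so that all MAPKAPK2 shRNA libraries lay below them. It fell by 0.60 with shRNA 1 (SE 0.17, limma adjusted p = 0.046), and its change of -0.34 with shRNA 2 did not pass (adjusted p = 0.21). The average of -0.47 had an adjusted p of 0.065, and 0.037 in the read-based fit.

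FN1, fibronectin, an extracellular matrix protein on chromosome 2 (215360440 to 215436172), measured 1.76 and 1.42 FPKM in the 20 mM controls, 1.82 and 1.70 at 0 mM, 1.12 and 1.53 with shRNA 1, and 0.351 and 0.667 with shRNA 2. Its shRNA 2 libraries were the lowest of all, in contrast to ZEB1 and SNAI2. FN1 fell by 0.79 with shRNA 2 (SE 0.19, limma adjusted p = 0.031), to 31.9% of the control mean, and its change of -0.16 with shRNA 1 did not pass (adjusted p = 0.60). The difference between the shRNAs of -0.62 (SE 0.19) had an adjusted p of 0.058, and 0.00084 in the read-based fit.

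The other 5 mesenchymal members were under the level set for a test. SPARC, a matrix glycoprotein, had 5 and 7 reads in the 20 mM controls, 7 and 5 at 0 mM, 56 and 59 with shRNA 1 (0.616 and 0.799 FPKM), and 0 with shRNA 2, where 3 reads would be 0.0328 and 0.0386 FPKM. It was thus seen mainly in the shRNA 1 libraries. In a limma fit without the filter on low values SPARC rose with shRNA 1 by 0.67 (SE 0.07, adjusted p = 0.0087) and was lower with shRNA 2 than with shRNA 1 by a log2 value of -0.77 (adjusted p = 0.0048). VIM, vimentin, the intermediate filament of mesenchymal cells, measured 0.313 and 0.447 FPKM in the 20 mM controls, 0.649 and 0.444 with shRNA 1, and 0.942 and 0.903 with shRNA 2. Its shRNA 2 libraries were the highest, but its change of 0.48 did not pass in that fit (SE 0.14, adjusted p = 0.13), and 24.4% of its exon bases also lie in VIM-AS1 on the opposite strand.

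TWIST1, a helix-loop-helix factor, measured 0.471 and 0.857 FPKM in the 20 mM controls and 0.183 to 0.314 in the other 6 libraries, without passing in the fit without the filter (adjusted p = 0.69 for glucose, and 0.21 for each shRNA). CDH2, N-cadherin, had at most 5 reads and ZEB2 at most 3 in any library. Without the first 20 mM control library the log2 change of ZEB1 with shRNA 2 was 1.16, and without the second shRNA 2 library 1.06. Its difference between the shRNAs was 0.69 without the second shRNA 2 library, and 0.96 and 0.89 without the first and the second shRNA 1 library. At a pseudocount of 0.1 that difference did not pass even with the filter on low values. P-values of these fits are left out, since the filter admitted ZEB1 through the shRNA 2 libraries alone. The call of SNAI1 with shRNA 1 was lost without any single library (0.054 to 0.184) other than the first shRNA 1 library, and that of FN1 with shRNA 2 without any of the 4 control libraries (0.055 to 0.171) or the first shRNA 2 library (0.090).

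**Figure D4:**
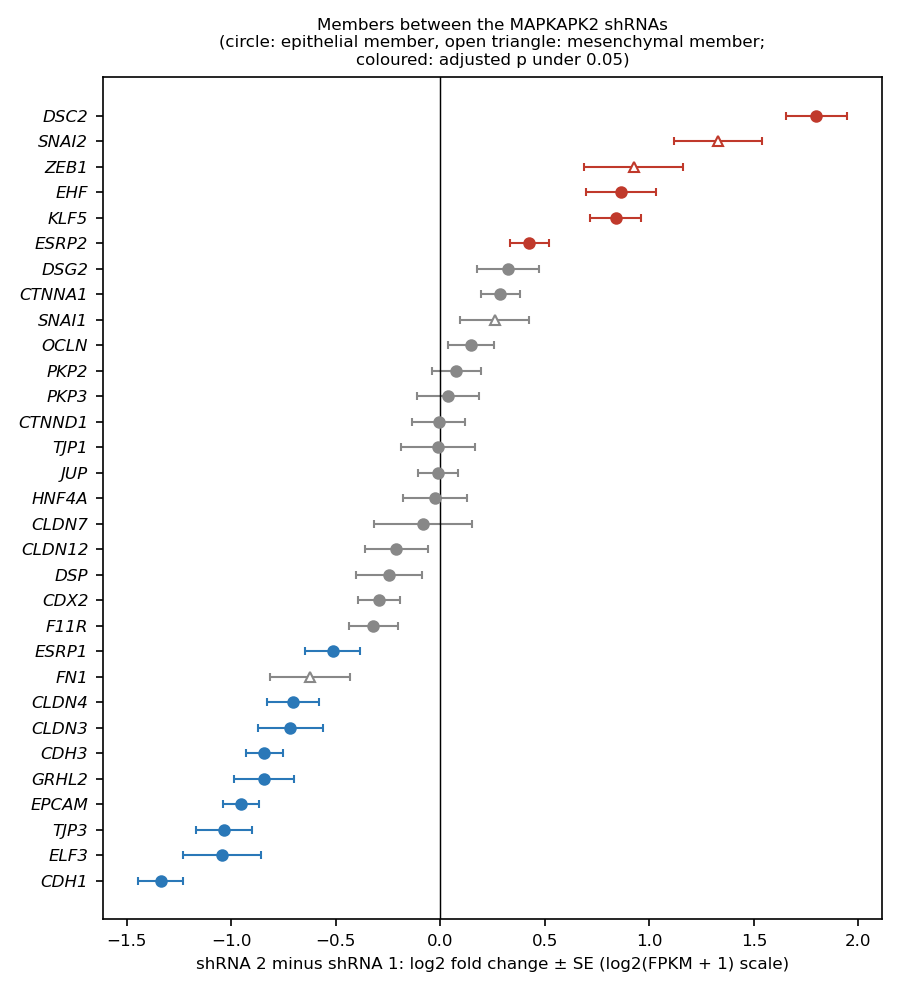
Difference between the MAPKAPK2 shRNAs (shRNA 2 minus shRNA 1, log2 fold change ± standard error on the log2(FPKM + 1) scale) for the 31 tested members in order of size. Circles are epithelial and open triangles mesenchymal members, red and blue pass an adjusted p of 0.05: 6 are higher with shRNA 2, led by DSC2 and SNAI2, and 9 are lower, led by CDH1. The 6 include ZEB1 and SNAI2, which were admitted to the test through the shRNA 2 libraries alone.

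Set directly against each other, the shRNAs differed in 15 of the 31 tested members, 6 higher and 9 lower with shRNA 2, where 22.2% of all genes differed (13.0% higher and 9.13% lower). All 9 lower members were epithelial: CDH1, CDH3, EPCAM, CLDN3, CLDN4, TJP3, ESRP1, GRHL2 and ELF3. The 6 higher were DSC2, ESRP2, EHF, KLF5, ZEB1 and SNAI2. For 7 of the 15 the changes against the control had opposite signs with the 2 shRNAs. Picking genes for a difference between the shRNAs makes opposite signs more likely, and the share over all such genes was not computed. Of the 7, only CDH1 and DSC2 passed against the control with both shRNAs. The change of ESRP2 with shRNA 2 was 0.04 and that of KLF5 with shRNA 1 was -0.14, and neither passed. The median difference was -0.08 over the epithelial members tested, beside 0.03 over all genes. The caution on ZEB1 and SNAI2 given above holds here too, also for the count over all members. Among the 27 epithelial members tested, 4 were higher and 9 lower with shRNA 2. Residual MAPKAPK2 also differed between the shRNAs (by -0.95, SE 0.09, limma adjusted p = 0.0012), and its part in these differences was not tested. Without the first shRNA 1 library 8 of the 15 calls were counted, and 10 without the second.

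In all, 12 tested members passed in no knockdown or difference comparison: CTNNA1, CTNND1, TJP1, OCLN, DSP, CLDN7, CLDN12, F11R, PKP2, PKP3, CDX2 and HNF4A.

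Other genes of the same systems were read beside the 19.8% of all genes called with shRNA 1 and the 18.8% with shRNA 2. Of 45 other junction genes 21 were tested, of which 6 rose and 4 fell with shRNA 1, and 7 rose and 2 fell with shRNA 2 (47.6% and 42.9% called). PKP4, a plakophilin-like catenin, went from a mean of 2.896 FPKM in the 20 mM controls to 8.53 with shRNA 1 and 9.70 with shRNA 2 (log2 changes 1.29 and 1.45, SE 0.13 each, limma adjusted p = 0.0018 and 0.00082). NECTIN3, a nectin of adherens junctions, went from 20.8 to 9.94 and 9.02 FPKM (-0.996 and -1.14, SE 0.18 each, adjusted p = 0.012 and 0.0072). Each of these genes moved in the same direction with both shRNAs, as JUP did. All 13 polarity genes were tested, of which 1 rose and 1 fell with shRNA 1, and 2 rose and 1 fell with shRNA 2 (15.4% and 23.1%), shares near those of all genes. PARD6B, a scaffold of the apical PAR complex, measured 6.52, 5.64 and 17.7 FPKM in the control, shRNA 1 and shRNA 2 groups (difference between the shRNAs 1.49, SE 0.14, adjusted p = 0.00096), whereas its paralogue PARD6A fell with both (-0.82 and -1.07, SE 0.22 each, adjusted p = 0.040 and 0.016).

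Of 23 other epithelial and intestinal regulators 14 were tested, of which 1 rose and 1 fell with shRNA 1, and 3 rose and 2 fell with shRNA 2 (14.3% and 35.7%, beside 19.8% and 18.8% of all genes). GRHL3, a relative of GRHL2, measured 5.41, 6.799 and 1.04 FPKM in the control, shRNA 1 and shRNA 2 groups, and fell with shRNA 2 by 1.65 (SE 0.13, limma adjusted p = 0.00057), the same direction as GRHL2. GRHL1 rose with shRNA 2 by 0.75 (SE 0.15, adjusted p = 0.015). KLF4 rose with both shRNAs (0.43 and 0.40, SE 0.09 each, limma adjusted p = 0.017 and 0.022). FOXA3 fell with shRNA 1 by 0.82 (SE 0.14, limma adjusted p = 0.0092). Of 32 other mesenchymal genes 15 were tested, of which 4 rose and 4 fell with shRNA 1, and 6 rose and 1 fell with shRNA 2 (53.3% and 46.7%). LOXL2, a collagen crosslinking enzyme, measured 2.896, 4.14 and 16.6 FPKM and rose with shRNA 2 by 2.17 (SE 0.14, adjusted p = 0.00032). S100A4, a calcium-binding protein of motile cells, measured 81.8, 299 and 95.5 FPKM and rose with shRNA 1 by 1.86 (SE 0.22, adjusted p = 0.0030). ITGA5, the fibronectin receptor subunit, rose with shRNA 2 by 1.27 (SE 0.11, adjusted p = 0.00088), in the libraries in which FN1 was lowest. COL1A1, a fibrillar collagen chain, went from 6.499 to 3.93 and 4.33 FPKM, and fell with both shRNAs (-0.60 and -0.49, SE 0.10 each, adjusted p = 0.0089 and 0.017). FOXC1 rose with both (0.86 and 0.81, SE 0.13 each, limma adjusted p = 0.0064 and 0.0074). COL6A1 measured 17.8, 39.1 and 28.2 FPKM and rose with shRNA 1 by 1.09 (SE 0.13, limma adjusted p = 0.0028).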

How the data were processed

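Libraries were made from total RNA with random hexamers; the labels' protocols leave it unsettled if strand was preserved. DESeq2 1.20.0, HISAT2 2.0.5 and featureCounts 1.5.0-p3 appear, without roles, in the submitters' processing notes. The deposited table holds FPKM made by the authors. All 58735 identifiers, positions, names and exon lengths match GENCODE 29 on GRCh38. FPKM multiplied by gene length gave whole reads for 100% of values (tolerance 0.001 of a read). They sum to 0.932 to 1.05 times the library size the authors divided by. One limma model (limma 3.58.1, R 4.3.3, eBayes with trend) on log2(FPKM + 1) fitted 4 group means over 8 libraries with 4 residual degrees of freedom. A gene entered when 2 libraries or more reached 1 FPKM, and Benjamini-Hochberg adjustment ran over all 16239 of them (threshold 0.05). The read-based fit used limma voom with the authors' library sizes. Steps were tested on simulated data. All 41 members are named. From each other list, some of the genes with the smallest p (up to 4 per comparison) are named. Members and lists were chosen with earlier results of these data known. Poisson intervals (95%) and the 3-read limit cover counting error only.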

Additional observations from a re-analysis of the deposited data

Results flagged for a closer look

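In 15 members the effect of shRNA 2 differed from that of shRNA 1 by its own limma test, with differences (shRNA 2 minus shRNA 1) on the log2(FPKM + 1) scale. Among the junction genes these were -1.34 for CDH1, -0.84 for CDH3, -0.95 for EPCAM, -0.72 for CLDN3, -0.71 for CLDN4, -1.03 for TJP3 and 1.80 for DSC2. Among the epithelial regulators they were -0.52 for ESRP1, 0.43 for ESRP2, -0.84 for GRHL2, -1.05 for ELF3, 0.86 for EHF and 0.84 for KLF5. Among the mesenchymal factors they were 0.92 for ZEB1 and 1.33 for SNAI2, both admitted to the test through the shRNA 2 libraries alone; without the filter on low values ZEB1 did not pass (adjusted p = 0.066) and SNAI2 did (0.011). No group was large enough for a check of single outlying libraries.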

How the results depend on the processing

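Across 14 alternative fits, tested members kept their side of the threshold in 2014 cases, lost a call in 119, gained one in 37, and in 0 cases did a call change its sign. The 2014 include members without a call in either fit, among them every case for glucose. Only the 10 calls for the average, 11 with each shRNA and 15 between the shRNAs could be lost. Without the filter on low values the average over both shRNAs called 5 members and shRNA 2 called 7. Leaving out each library in turn gave 0 members for glucose, 2 to 10 for the average, 6 to 12 with shRNA 1, 5 to 12 with shRNA 2 and 8 to 15 between the shRNAs. The median of the epithelial members ranged over these fits from 0.00114 to 0.138 for glucose and from 0.072 to 0.13 with shRNA 2, and was 0.37 with shRNA 1 after quantile normalization. The median of the mesenchymal members with shRNA 1 was 0.05, but -0.029 to 0.118 when a library was left out, 0.28 at a pseudocount of 0.1 and 0.40 in the read-based fit. With shRNA 2 it was 0.48, and 0.384 to 0.574 when a library was left out, 1.02 at a pseudocount of 0.1, 0.68 at 0.5 and 1.15 in the read-based fit. These medians with shRNA 2 carry no weight, since ZEB1 and SNAI2 were admitted through the shRNA 2 libraries alone. A smaller pseudocount shrinks low genes less by construction. The cause of the other changes was not tested.

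The replicate numbers pair the libraries weakly at most: deviations of same-numbered libraries correlated at -0.029 to 0.179 over the 6 pairs of groups. The 0.179 was between the 0 mM control and the shRNA 2 groups. The second libraries of these groups stood apart on the third principal component, and a batch shared by them was not tested. With the number as a replicate block, 0 members were called for glucose, 12 for the average, 12 with shRNA 1, 11 with shRNA 2 and 15 between the shRNAs. The planned edgeR and DESeq2 fits were not run, because the deposited unit is FPKM. With 2 libraries a group, a member that did not pass is not shown to be unchanged.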
